A study of Caenorhabditis elegans with 2 samples.

Results

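The genes described here are the 64 protein-coding genes of Caenorhabditis elegans whose symbol names a histone-modifying enzyme or a close partner of one (the set, jmjd, hda and mys genes, utx-1, rbr-2, met-1 and met-2, mes-2, mes-3, mes-4 and mes-6, spr-5, lsd-1, amx-1, cbp-1 and the HP1 genes hpl-1 and hpl-2), out of 19973 nuclear protein-coding genes. They were chosen by symbol and not by a measured value, but with earlier results of these data known. Histone-modifying enzymes write and erase the methyl and acetyl marks on histone tails, and a few chromatin proteins read these marks or hold the enzymes in complexes. SET-domain proteins are lysine methyltransferases in most studied cases, and many JmjC proteins and the LSD1-type ones are lysine demethylases. MYST and CBP proteins are acetyltransferases, and HDA proteins are deacetylases. In the worm embryo these enzymes are known for silencing heterochromatin, for keeping germline and somatic programmes apart and for dosage compensation.

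The measurement was chromatin immunoprecipitation with sequencing of CEH-2, a homeodomain protein, in 1 group of 2 biological replicates with no second condition. The worms were hermaphrodite late embryos of strain OP323, a transgenic line with a C-terminal GFP-FLAG tag on CEH-2, collected 5 hours after synchronization by egg bleaching, and the antibody was against GFP. Both replicates carry the transgene, and an immunoprecipitation from untagged worms was not analysed here, so what each peak owes to the tagged protein was not tested. Chromatin came from whole embryos, so a site occupied in few cells and a site occupied weakly in many cannot be told apart. The authors' reproducible set, the optimal set under the irreproducible discovery rate, held 1430 nuclear peaks, and the relaxed lists held 16022 for pooled reads, 18411 for replicate 1 and 15161 for replicate 2. A gene counted as having a summit when a peak's highest point lay in its promoter window, which reaches 1000 bp upstream and 200 bp downstream of any start of a coding transcript. Signal is the authors' peak value in units that are not given, and positions are on ce11.

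The bases around the strongest members' summits are shown first, because the results turn on these sites. Each line gives the highest reproducible summit of the window with 50 bases to either side, 5′ to 3′ on the gene's strand, for the 6 members with the highest signal. Letters are from the RefSeq genome of WBcel235, the assembly of ce11. Capitals mark matches on either strand to the GA repeat GAGAGA, to the element GGCCAC and its shorter form GGCC, or to the homeodomain core in its TAATTA and TAATGA forms.
jmjd-1.2, chrIV:4660530-4660630, plus strand: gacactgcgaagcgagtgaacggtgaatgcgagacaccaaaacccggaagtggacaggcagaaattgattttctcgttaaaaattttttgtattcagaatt
set-2, chrIII:4930421-4930521, minus strand: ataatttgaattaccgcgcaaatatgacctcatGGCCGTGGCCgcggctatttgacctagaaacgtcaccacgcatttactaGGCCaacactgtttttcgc
hda-11, chrV:10526075-10526175, plus strand: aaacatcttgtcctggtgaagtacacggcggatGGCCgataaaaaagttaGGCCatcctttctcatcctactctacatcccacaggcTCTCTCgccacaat
mys-1, chrV:7084866-7084966, minus strand: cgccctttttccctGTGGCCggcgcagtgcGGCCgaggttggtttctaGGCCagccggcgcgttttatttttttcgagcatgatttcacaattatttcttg
set-20, chrX:5686233-5686333, minus strand: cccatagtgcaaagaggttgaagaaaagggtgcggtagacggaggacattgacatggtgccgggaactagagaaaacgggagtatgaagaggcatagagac
hda-6, chrIV:5364290-5364390, minus strand: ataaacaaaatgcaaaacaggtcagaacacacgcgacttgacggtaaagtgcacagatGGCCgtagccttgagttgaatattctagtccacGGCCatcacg

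The 64 members held 15 reproducible summits in their promoter windows. At 1 of these 15 summits, or 6.67%, a homeodomain core of either form was present in the same stretch, against 52 of all 1430 reproducible summits, or 3.64%, and 10.4% of 2860 equally long windows centred 300 bp to either side of them. The member with a core was set-25, at the weaker of its summits. None of the 6 sequences printed above holds either core. GAGAGA lay at 2 member summits, those of hda-11 and set-16, or 13.3%. Its share was 24.5% at all reproducible summits and 7.45% in the windows beside them. GGCCAC lay at 2, those of set-2 and mys-1, against 200 of all 1430 and 1.82% of the windows beside them. The shorter GGCC was looked for only after the sequences had been read. It lay at 4 member summits, those of set-2, hda-11, mys-1 and hda-6, or 26.7%, against 36.6% of all reproducible summits and 9.65% of the windows beside them. The median GC content was 47.5% at member summits, with a range of 24.8 to 61.4%, against 49.5% at all reproducible summits. It was not measured in the windows beside the summits. These counts describe letters in a window and were not tested.

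Reproducible promoter summits were found at 13 of the 64 members, or 20.3%, against 1189 of all 19973 genes, or 5.95%. In order of pooled signal they were jmjd-1.2, set-2, hda-11, mys-1, set-20, hda-6, set-25, cbp-1, utx-1, set-4, set-21, set-16 and mys-4. In the pooled relaxed list 31 members had a summit, or 48.4%, against 29.4% of all genes. Replicate 1 alone gave 32 members, against 30.8% of all genes, and replicate 2 alone gave 27, or 42.2%, against 28.1%. A summit in each replicate's own list was found for 23 members, or 35.9%, against 19.8% of all genes. The share of members was thus above that of all genes in each library, a difference that was not tested. The promoter window covered 1368 bp on average in members and 1453 bp in all genes.

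In strength these 13 members spanned most of the range. Their median pooled signal was 140.9, against 138.1 over all 1189 genes with one, and 7 of the 13 lay above the median of those genes. Ranked among those 1189 genes by their highest reproducible promoter summit, 1 of the 13 was in the first 100 and 6 were in the first 500. Signals ran from 492 at jmjd-1.2 to 92.2 at mys-4, just above the lowest reproducible nuclear signal of 86.3. The strongest member outside the reproducible set, jmjd-4, had 76.8.

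**Figure D1:**
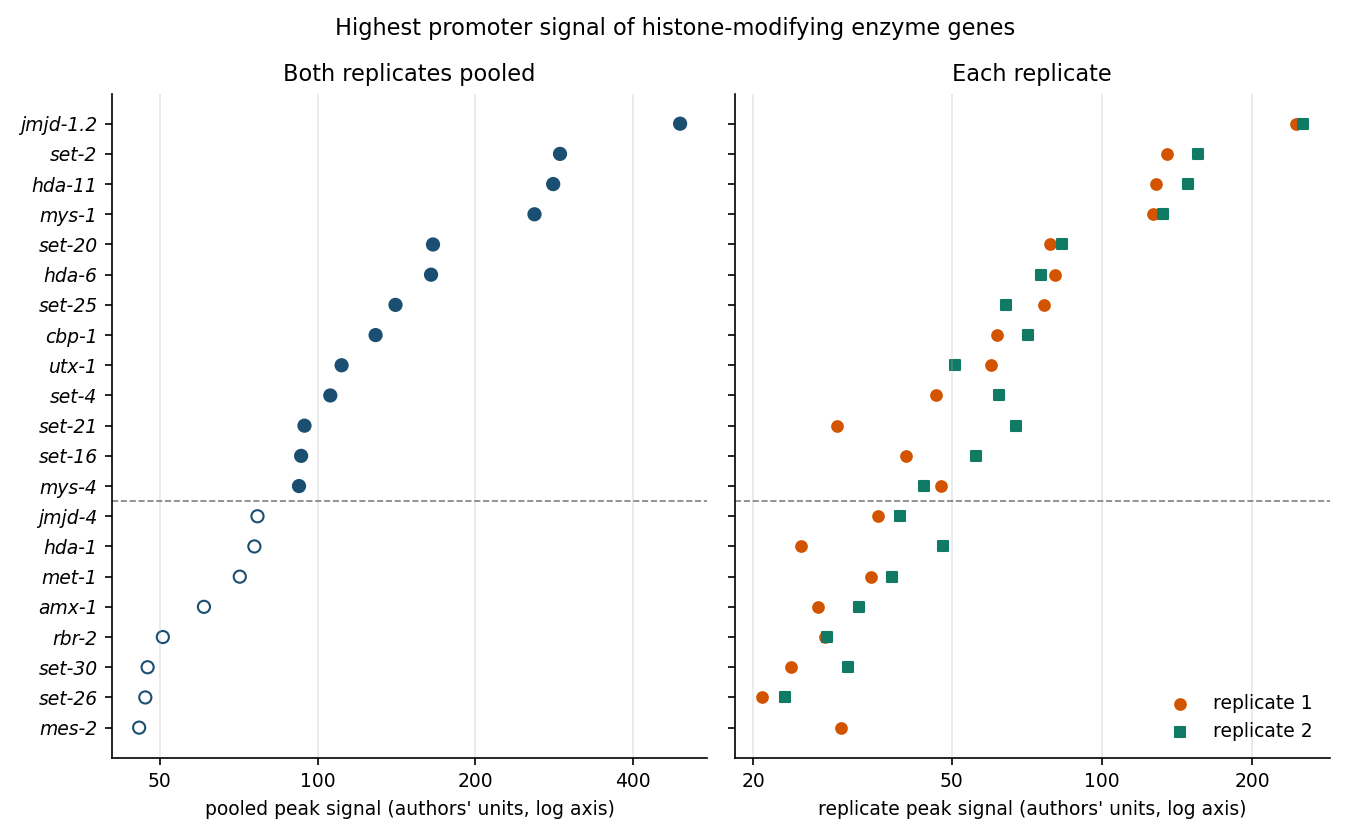
Highest promoter signal, on log axes in the authors' units, of the 13 members with a reproducible summit (filled, above the dashed line) and the 8 strongest members with only a relaxed one (open, below it). The left panel shows pooled reads and the right panel each replicate, with no replicate 2 point for mes-2. The replicates' raw values, on list scales that were not matched, lie closest at jmjd-1.2 (244.6 and 252.7) among the members with a reproducible summit. They lie farthest apart at set-21 (29.4 and 67.3).

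Of the 10 genes grouped by symbol as JmjC demethylases, 2 had a reproducible summit. The strongest of all members was jmjd-1.2 (WBGene00017920, chromosome IV, 4660991 to 4665212, plus strand), whose PHF8-type product removes methyl groups from H3K9 and H3K27 and is known for its part in the mitochondrial stress response. Its highest summit, at 4660580, lay 411 bp upstream of the nearest start with a pooled signal of 492, and 244.6 in replicate 1 and 252.7 in replicate 2. This was rank 14 among all genes. A second reproducible summit at 4660797, 194 bp upstream, had a pooled signal of 136, but both summits were listed with the same peak interval, 4660406 to 4660808, and each replicate had 1 summit in the window. The higher summit lay nearer to a start of the neighbouring gene F29B9.11, at 379 bp, than to one of jmjd-1.2. The lower summit lay nearer to jmjd-1.2, as it is 596 bp from F29B9.11. Both summits lie in the windows of both genes, so the peak cannot be assigned to 1 of the genes. The H3K27 demethylase gene utx-1 had a summit 272 bp upstream on chromosome X, at 8556874, with a pooled signal of 111, and 59.8 in replicate 1 and 50.8 in replicate 2. Of the others, jmjd-4 and rbr-2, which encodes the KDM5-type H3K4 demethylase, had relaxed summits only. The summit of jmjd-4 lay 118 bp upstream, shared with mev-1, with 76.8 in pooled reads, 35.6 in replicate 1 and 39.4 in replicate 2. That of rbr-2 lay 621 bp upstream, with 50.7 in pooled reads, 27.8 in replicate 1 and 28.1 in replicate 2. Neither gene reached the lowest signal of the reproducible set. For jmjd-3.1, an H3K27 demethylase gene that acts with jmjd-1.2 in the mitochondrial stress response, the only summit was one of 20.01 in replicate 1. For jmjd-5 it was one of 15.4 in replicate 1. The remaining genes, jmjd-1.1, jmjd-2, jmjd-3.2 and jmjd-3.3, had no promoter summit in any list. None of the 3 LSD1-type genes had a reproducible summit. Relaxed summits in both replicates were present at amx-1, with a pooled signal of 60.7, and at lsd-1, with 31.9. The replicate signals of amx-1 were 26.9 in replicate 1 and 32.5 in replicate 2, at a site 294 bp upstream. The third gene, spr-5, had no promoter summit in any list.

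Among methyltransferase genes the H3K4 group stood highest, with 2 of 3. The gene of the catalytic subunit of COMPASS, set-2 (WBGene00004782, chromosome III, 4922427 to 4930204, minus strand), had a summit at 4930471, 267 bp upstream, in the window of no other gene. Its pooled signal was 290, with 135.2 in replicate 1 and 156.1 in replicate 2, and its rank was 133. The MLL3/4-type gene set-16 had 93.04 at 13643720 on the same chromosome, 196 bp upstream, with 40.4 in replicate 1 and 55.8 in replicate 2. That summit lay nearer to a start of its neighbour drr-2, at 150 bp. The third gene, set-17, had a summit of 18.8 in replicate 1 only.

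Of the 4 H3K9 methyltransferase genes, set-25 alone had a summit in any list. Its product lays down H3K9me3 and anchors heterochromatin at the nuclear periphery. Summits lay 52 and 252 bp upstream, at 13293142 and 13293342 on chromosome III, and no other gene's window held them. The nearer one had a pooled signal of 140.9, with 76.6 in replicate 1 and 64.2 in replicate 2. The farther one had 122.7, with 64.6 in replicate 1 and 56.6 in replicate 2. The met-2 gene, for the enzyme of H3K9 mono- and dimethylation that works upstream of set-25, had no promoter summit in any list, and neither had set-32 and set-11. For H4K20, set-4, whose product makes the di- and trimethylated form, had a summit 292 bp upstream with a pooled signal of 105.8, and 46.5 in replicate 1 and 62.2 in replicate 2. The replicate 1 summit lay 127 bp from the pooled one. The H4K20 monomethyltransferase gene set-1 had none in its window.

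The Polycomb group and the H3K36 enzymes had no reproducible summit. The EZH2-type gene mes-2 had a pooled signal of 45.6 with summits of up to 29.97 in replicate 1 and none in replicate 2, mes-3 had 16.3 in replicate 1 only, and mes-6 had none. Of the H3K36 methyltransferase genes, met-1 had a relaxed summit exactly at a start, with a pooled signal of 71.05, and 34.5 in replicate 1 and 37.9 in replicate 2. The other, mes-4, had 31.1 in pooled reads and a summit in replicate 2 only. The HP1 gene hpl-1 had a pooled signal of 38.7 with a summit in replicate 2 only, and hpl-2 had none. The PHD-SET gene set-26 had 46.9 in pooled reads, 20.8 in replicate 1 and 23.1 in replicate 2, at a site 577 bp upstream that tsr-2 shares, and set-9, its close relative, had none.

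The 21 other SET genes held 2 reproducible summits. For set-20, on chromosome X, the summit at 5686283 was 125 bp from the start and reached 166 in pooled reads, 78.5 in replicate 1 and 83.1 in replicate 2. For set-21, on chromosome IV, it was at 4390679, 165 bp upstream, and reached 94.4 in pooled reads. The replicates' raw values differed most there among the members in the reproducible set, with 29.4 in replicate 1 and 67.3 in replicate 2, a ratio of 2.29. This summit also lay 89 bp from a start of rpl-7A, a ribosomal protein gene, nearer than to set-21, so the peak cannot be assigned to 1 of the genes. A reproducible summit inside set-18 lay in an intron 2312 bp from its nearest start, within 300 bp of a tRNA, snoRNA or snRNA gene. It was the only reproducible summit inside a member's gene and outside the window. Among the genes of this group with relaxed summits only, set-30 had the highest signal, at a site 288 bp upstream, with 47.4 in pooled reads, 23.8 in replicate 1 and 30.9 in replicate 2. The 7 further members with relaxed summits only, set-8, set-10, set-15, set-18, set-23, set-24 and set-27, had pooled signals from 29.9 at set-8 to 42.7 at set-10.

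Of the 8 deacetylase genes 2 had a reproducible summit. The summit of hda-11, the HDAC11-type gene (WBGene00007953, chromosome V, 10526184 to 10528444, plus strand), was at 10526125, 59 bp upstream, and reached 282 in pooled reads, 128.6 in replicate 1 and 148.8 in replicate 2. Its neighbour C35A5.8 starts 217 bp from the summit. The class II gene hda-6 had a summit 34 bp upstream with a pooled signal of 165, and 80.5 in replicate 1 and 75.5 in replicate 2, at the same base in all 3 lists. F41H10.4 starts 219 bp from it. The HDAC1 gene hda-1, whose product is the core deacetylase of NuRD, had a relaxed summit 961 bp upstream, shared with ril-1. Its pooled signal was 75.8, and it was uneven between the replicates, at 24.9 in replicate 1 and 48.1 in replicate 2. The genes hda-2, hda-3, hda-4, hda-5 and hda-10 had no promoter summit in any list.

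The acetyltransferases had the largest share of any group of members, 3 of 4 genes. The TIP60 gene mys-1 (WBGene00007029, chromosome V, 7081545 to 7084662, minus strand) had a summit at 7084916, 254 bp upstream, with a pooled signal of 259, and 126.3 in replicate 1 and 132.4 in replicate 2. The gene of the CBP/p300 coactivator, cbp-1, had its reproducible summit 910 bp upstream, the farthest of the 13. Its signal was 129.1 in pooled reads, 61.5 in replicate 1 and 71.1 in replicate 2, and a weaker relaxed summit of 78.4 lay 92 bp upstream. The MYST gene mys-4, the only one of the 13 members on chromosome I, had its summit in its own 5′ UTR, 7 bp downstream of the start, with a pooled signal of 92.2, and 47.5 in replicate 1 and 44.04 in replicate 2. The MYST gene mys-2 had no promoter summit in any list.

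The groups are small, from 2 to 21 genes, and their shares were not compared with each other by a test. In all, 27 of the 64 members had no promoter summit in any list, and 6 had one in a single replicate's list alone. Another 18 had one in the pooled relaxed list but not in the reproducible set, as did 4680 of all 19973 genes. The counts of 27 and 6 were not taken over all genes, so no lack particular to the members is read from them. In each list, a summit was present at a larger share of members than of all genes. Besides the genes already named, the members with no promoter summit in any list were set-3, set-5, set-6, set-12, set-13, set-19, set-22, set-28 and set-31. Besides those named, set-29 had one of 16.99 in replicate 1 and set-14 one of 17.8 in replicate 2. Of the 18, 10 had a summit in both replicates, 4 in replicate 1 only, 3 in replicate 2 only and 1, set-8, in neither. Their median pooled signal was 41.8, against 41.3 over the 4680 genes of the same kind. The 51 members without a reproducible summit in the window lay a median of 14173 bp from the nearest one, and 30 had none within 10000 bp of a start. The nearest was 1123 bp away, at jmjd-2. These distances were not taken for other genes, so nothing particular to the members is read from them.

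The ranks of most members with a summit in both replicates were close. Each member's highest signal was expressed as a percentile among all genes with a promoter summit in the same list. Over the 23 members with a summit in both replicates, 18 differed by at most 10 percentile points, and the median difference was 4.35. The 5 others were hda-1, at 80.6 in replicate 2 and 52.8 in replicate 1, set-21, at 88.03 and 63.9 in the same order, set-18, at 33.6 and 17.1, set-30, at 61.2 and 49.6, and lsd-1, at 23.2 and 34.5. Of these 5, only set-21 is in the reproducible set. That set is chosen by agreement between these same replicates and holds 13 of the 23, so closeness there is partly fixed by the choice. The share within 10 points was not taken over all genes. Among the 13 members in the reproducible set, the replicate 2 signal was the higher one at 9 and the replicate 1 signal at 4. The ratio of the higher to the lower value had a median of 1.16 there. Both describe raw values of lists whose scales were not matched, and neither was taken over all genes. The 4 strongest, jmjd-1.2, set-2, hda-11 and mys-1, lay at or above the 96.6th percentile in each replicate.

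**Figure D2:**
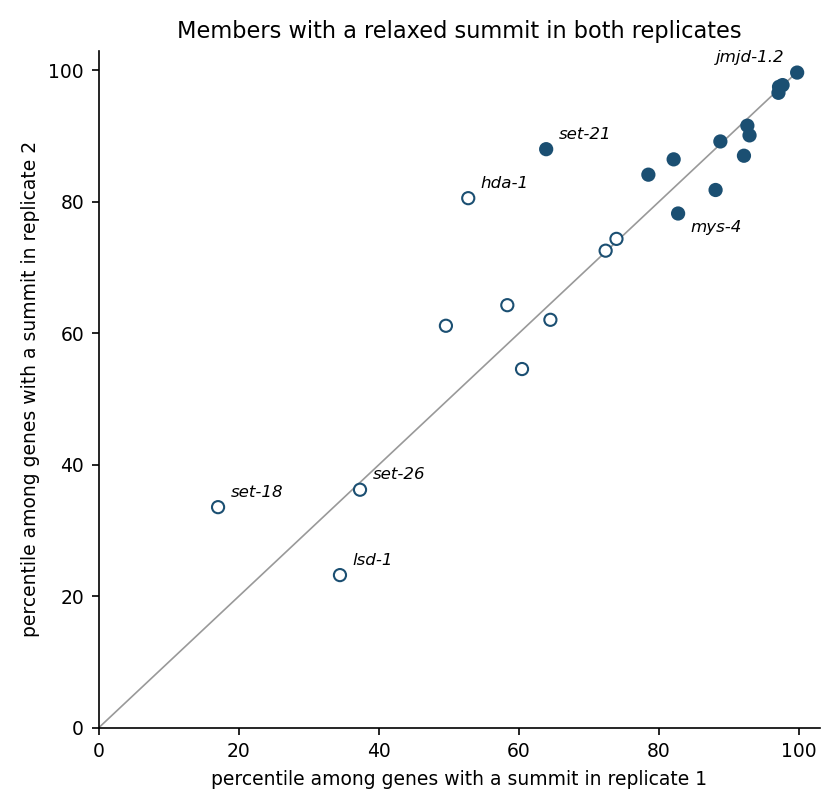
Percentile of each member's highest promoter signal in replicate 2 against that in replicate 1, for the 23 members with a summit in both, on axes from 0 to 100 with the line of equal percentiles; filled points are members in the reproducible set. Most points lie near the line, and hda-1 (80.6 and 52.8) and set-21 (88.03 and 63.9) lie farthest above it.

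Within the window, most reproducible summits lay near a start. Of the 15 reproducible summits, 14 were upstream, with a median position of 196 bp upstream, and 12 lay within 300 bp upstream of a start. The window reaches 1000 bp upstream but 200 bp downstream, so summits placed anywhere in it would mostly be upstream. Of the 28 summits in members' windows that were only relaxed, 24 were upstream and 13 lay within 300 bp upstream. The upstream share was not taken over all genes. Taking the highest summit of each gene, 10 of the 13 members had it within 300 bp upstream, or 76.9%, against 54.8% of all 1189 genes. By annotation 12 of these 13 summits were intergenic and 1 was in a 5′ UTR, and 92.3% intergenic compares with 83.9% over all genes. None lay within 300 bp of a tRNA, snoRNA or snRNA gene, against 6.06% over all genes. A summit shared with the window of another gene was found for 5 of the 13, jmjd-1.2, hda-11, hda-6, set-21 and set-16, or 38.5%, against 55.2% over all genes. The other 8 members had theirs in no other gene's window, 8 of 64 or 12.5%, against 2.68% of all genes. In 6 members another pooled summit of the window lay 199 to 201 bp from the strongest: set-2, mys-1, set-20, hda-6, set-25 and utx-1. No summits in any of the 4 lists lay closer together than 199 bp, and 21.6% of neighbouring pooled summits up to 400 bp apart had a spacing of 199 to 201 bp. Whether such a pair, as at set-25, is 1 site or more was not tested.

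**Figure D3:**
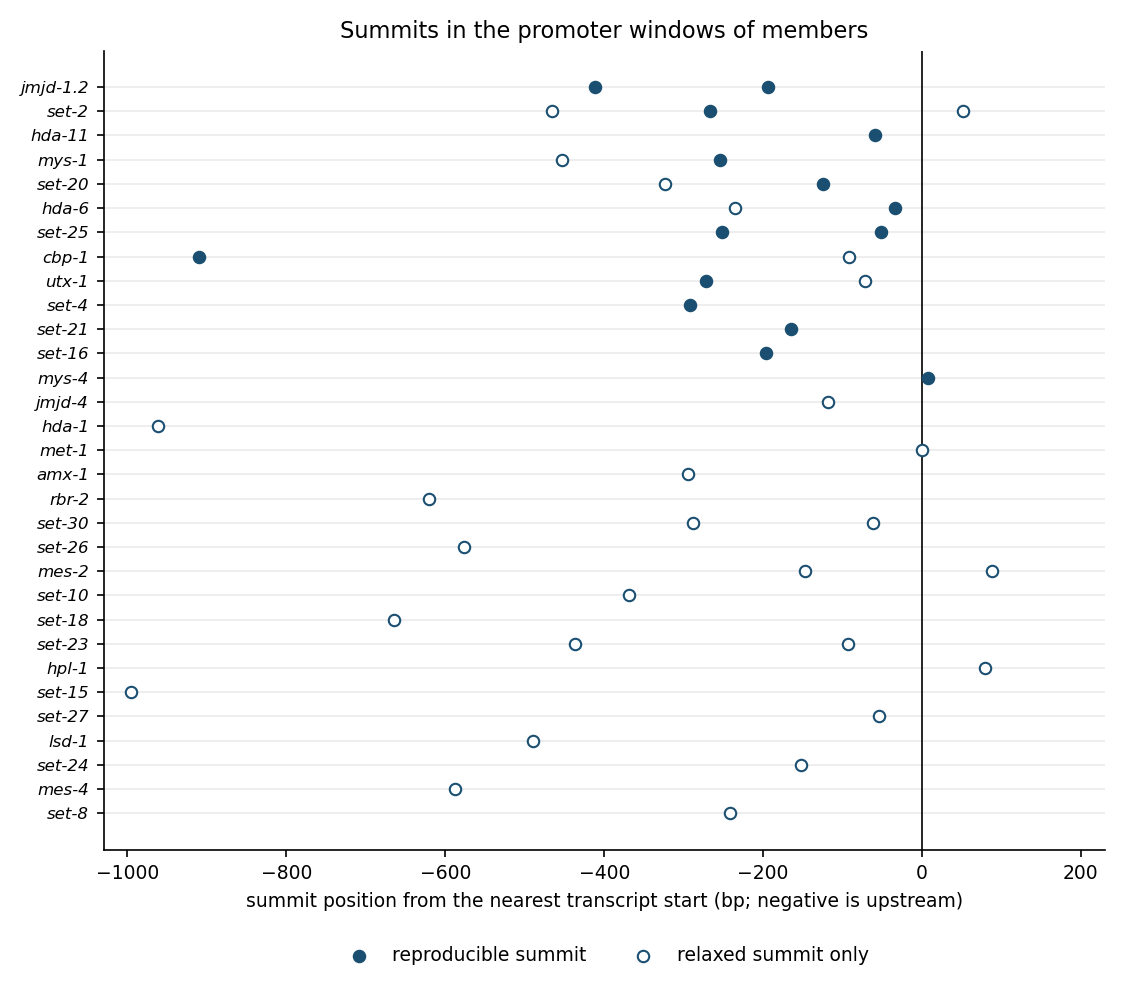
Positions of all pooled summits in the promoter windows of the 31 members with any, as distance in bp from the nearest transcript start (negative is upstream), in order of signal. Filled points are reproducible summits and open points relaxed ones; 12 of the 15 filled points lie within 300 bp upstream, and cbp-1 stands apart at 910 bp.

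The same comparison was made for 61 partners and other chromatin genes outside the symbol rule, in 5 lists by known function. A reproducible summit was present at 20.3% of members, at 13 of the 61 partner genes, or 21.3%, and at 5.95% of all genes. A pooled relaxed one was present at 48.4% of members, at 43 of the 61, or 70.5%, and at 29.4% of all genes. The 13 partner genes had a median pooled signal of 156.7 and a range of 100.6 to 272. The COMPASS partners had 3 of 9, rbbp-5 (251), ash-2 (140.5) and wdr-5.3 (132.0), and the other 6, wdr-5.1, wdr-5.2, dpy-30, cfp-1, pis-1 and hcf-1, had no reproducible one. The partners of acetyltransferase complexes had 4 of 10: ruvb-1 (208), mrg-1 (197), ekl-4 (152.7) and epc-1 (108.6). Of these, ekl-4 and epc-1 encode subunits that work with MYS-1. The NuRD, SIN3 and CoREST partners had 2 of 15, rcor-1 (272), for the CoREST protein, and lin-53 (105.1), for a histone-binding protein of the RbAp46/48 type. Other histone enzymes had 1 of 15, the H3K79 methyltransferase gene dot-1.1 (100.6). Chromatin readers had 3 of 12: lin-61 (202), bet-2 (176) and cec-3 (156.7). For 11 of these 13 genes the summit lay in a neighbour's window too, against 55.2% of all 1189 genes with a reproducible summit. Among these neighbours were rps-20 at ekl-4 and mre-11 at wdr-5.3, and rcor-1 and bet-2 were the exceptions. In the pooled relaxed list the shares were 5 of 9, 10 of 10, 12 of 15, 9 of 15 and 7 of 12 in the order given above.

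**Figure D4:**
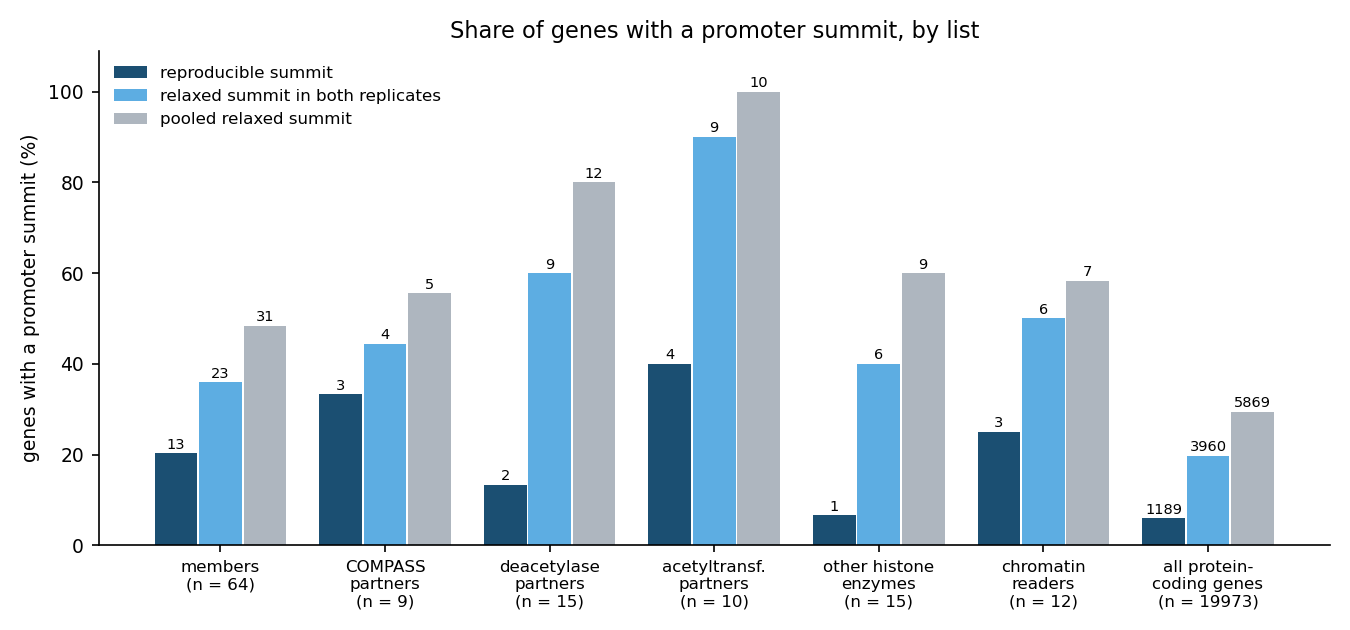
Percentage of genes with a reproducible promoter summit, with a relaxed summit in both replicates and with a pooled relaxed summit, for the members, 5 lists of partners and other chromatin genes, and all protein-coding genes; the number above each bar counts genes. The reproducible share is 20.3% in members and 5.95% in all genes, and lists of 9 to 15 genes have coarse shares.

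The count of members moved with the rule by less than 1.5 times, apart from the stricter set and the rule on shared summits. Windows of 500 bp upstream gave 12 members, without cbp-1, against 4.68% of all genes, and windows of 2000 bp gave 16, with jmjd-2, set-1 and set-5 added, against 7.73%. The most upstream start alone gave the same 13, against 5.57%, as did summits away from tRNA, snoRNA and snRNA genes, against 5.61%, and the starts of all transcripts, against 5.97%. Peak intervals in place of summits gave 14, with jmjd-2 added, against 6.45%. The strongest peaks of replicate 2 alone gave 13, with hda-1 in place of mys-4, against 5.93%, and those of replicate 1 alone gave 11, without set-16 and set-21, against 5.78%. In the stronger 715 of the reproducible peaks 8 members remained, jmjd-1.2, set-2, hda-11, mys-1, set-20, hda-6, set-25 and cbp-1, against 3.45% of all genes. For the pooled relaxed list the count was 25 with 500 bp (22.5% of all genes), 39 with 2000 bp (38.9%) and 31 with the most upstream start alone (26.7%). Requiring the replicates' summits to lie within 100 bp of each other gave 20 members in both replicates, without set-4, set-10 and set-30, against 15.2% of all genes.

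By chromosome, reproducible summits were at 4 of 11 members on III, 3 of 9 on IV, 2 of 8 on V, 2 of 14 on X, 1 of 12 on II and 1 of 10 on I. Over all genes the shares were 9.09% on III, 4.97% on IV, 3.62% on V, 5.31% on X, 5.94% on II and 8.86% on I.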

How the data were processed

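Peak lists of 2 biological replicates were analysed. Per the file lists deposited with the samples, relaxed peaks were called against a control for each replicate and for pooled reads, and the optimal set came from those lists through the irreproducible discovery rate. Not given in the sources used here are its threshold, the aligner and the peak caller. The signal of a peak is the authors' value, on a scale not stated. Ranks and percentiles were taken within a list. Where raw values of the replicates stand side by side, the scales of their lists were not matched. Read counts are not in these lists, so the depth is unknown. Only ce11 lists were used, and the ce10 lists were not analysed here.

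Members were found by symbol in Ensembl release 115 (WBcel235, the assembly of ce11). A gene got every summit from 1000 bp upstream to 200 bp downstream of its coding transcripts' starts, and a summit in several windows counted for each gene. Mitochondrial peaks were left out. Sequence came from the RefSeq WBcel235 genome. A summit's percentile is among genes with a promoter summit in the same list.

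Members, role lists and partner lists were chosen with earlier results of these data known, so no test was made and shares stand beside those of all genes. With 1 group there was nothing to test between samples. Named genes are all members with a reproducible summit, the 8 strongest with only a relaxed one, up to 4 per partner list, and others where a count of 5 or fewer or a group needed them. The assignment was tested on simulated data with planted summits. Alternatives were other windows, starts, peak sets and single replicates. Python 3.11.15, numpy 2.4.6, pandas 2.3.3 and matplotlib 3.10.9 were used.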

Additional observations from a re-analysis of the deposited data

How the results depend on the processing

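The unit is a gene with or without a summit, and 2 replicates give no spread for a count. The share of members stayed above that of all genes in every setting run. The reproducible count of 13 members became 8 in the stronger part of the reproducible peaks, which holds fewer peaks, and 8 with summits in the window of 1 gene alone. The other settings kept it between 11 and 16, and 11 to 13 when either replicate was left out. The pooled relaxed count of 31 stayed between 25 and 39. The median pooled signal of the members with a reproducible summit was 140.9, and it became 152.8 with windows of 500 bp upstream, which leave out cbp-1. The percentiles of the 21 named members were counted as moved, by more than 1 SD of the replicates' percentiles, in 29 of 80 alternatives. For single replicates that SD comes from the same values, so the count says little there. No SD exists for mes-2, with a summit in 1 replicate, and each of its moves was counted. Where a summit remained, another window moved a percentile by at most 12.5 points (cbp-1). With 500 bp upstream hda-1, rbr-2 and set-26 lost their pooled summit and were not counted, nor was mes-2 without replicate 1. Without replicate 2 the percentile became 52.8 at hda-1, against 75.7 in pooled reads, 63.9 at set-21, against 82.3, and 64.9 at mes-2, against 48.4. The rule on shared summits, the starts of all transcripts and the motif GGCC were added once the data had been seen. Unknown depth limits how far a missing summit can be read.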
